A study of Homo sapiens with 4 samples.

Results

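The ADAM and ADAMTS genes were followed in BEAS-2B cells, a line of human bronchial epithelial cells immortalised with viral genes, after cadmium exposure. The family was taken as every row whose symbol is ADAM, ADAMTS or ADAMTSL followed by a number alone, which gave 46 of the 25411 genes in the tables: 22 ADAM, 19 ADAMTS and 5 ADAMTSL genes. The comparison set 2 libraries of cells kept for 72 h with 5 µM cadmium chloride against 2 libraries of cells grown for 72 h without it. All libraries came from the same line, grown in Dulbecco's Modified Eagle's Medium, and were made from total RNA with a TruSeq RNA kit. The series title names SNAIL1, a transcription factor of epithelial-mesenchymal transition, and a fall in the microRNA miR-30e. The labels place both cadmium libraries in experiment 2 and both controls in experiment 1, so the experiment cannot be told apart from the treatment. The labels do not say whether replicates were grown apart, so the p-values speak only of library-to-library spread, possibly technical.

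ADAM proteins are membrane-anchored proteins with a metalloprotease and a disintegrin domain, and the active ones cut other membrane proteins close to the cell surface, which releases growth factors, cytokines and adhesion molecules. ADAMTS enzymes are secreted, carry thrombospondin type 1 repeats, and cut matrix proteins such as proteoglycans and procollagens. ADAMTSL proteins resemble ADAMTS enzymes but lack the protease domain, and they associate with fibrillin microfibrils. The family name "metalloproteases" therefore does not hold for every row. Among others, ADAMTSL proteins, ADAM11, ADAM22 and ADAM23 have no catalytic activity, and ADAM5 and ADAM6 are pseudogenes in humans.

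Reads assigned to genes numbered 29937242 and 15537382 in cadmium replicates 1 and 2, and 26529403 and 8609243 in control replicates 1 and 2. Levels are given as CPM, which are reads scaled to a common library size with TMM factors, and as the authors' RPKM, which also divides by transcript length, where genes are compared with each other. A level of 3 reads corresponded to 0.098 and 0.190 CPM in the cadmium libraries, and to 0.115 and 0.356 CPM in the controls. These floors cover counting error only. Of 8 bronchial epithelial markers 6 were expressed well enough to be tested, with KRT8 at 587 and 617 CPM in the cadmium libraries and 540 and 649 CPM in the controls. EPCAM (1.36) and DSP (1.64) were higher by these log2 fold changes and KRT7 fell by 1.02. EPCAM and DSP did not pass without cadmium replicate 1 (adjusted p = 0.0994 and 0.0596, edgeR). The basal cell keratin KRT5 had 0 reads in both cadmium libraries and 1 and 0 reads in the controls, and CDH1 stayed below 1 CPM in all 4 libraries. Endothelial markers summed to 3.79 and 3.48 CPM with cadmium and 1.42 and 1.19 CPM in control, with PECAM1 at 0 reads and TIE1, the 1 of 6 tested, called higher except without cadmium replicate 1 (adjusted p = 0.126).

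Printed here are a strand of miR-30e, the microRNA named in the series title, and stretches of ADAM and ADAMTS 3' untranslated regions. These stretches can pair with the strand's seed, and their bearing on the study's question was not tested. The mature miR-30e-5p (RefSeq, GRCh38.p14, chr1:40754371-40754392, plus strand) is shown first, with its seed, bases 2 to 8, in capitals. Under it are sites from 4 family members, 5' to 3', with the 7 bases that complement the seed in capitals (GENCODE v29 transcripts).
miR-30e-5p: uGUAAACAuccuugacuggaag
ADAM12, site 1: tctagtcaatcaagtcTGTTTACtgcaagg
ADAM12, site 2: gccccctcgccactgaTGTTTACtaagcac
ADAM12, site 3: cagtggctaatacatcTGTTTACctttccc
ADAM10: ttgaatgcttaaattcTGTTTACagtccgt
ADAM19: ttgtccacctattaatTGTTTACaatattt
ADAMTS6, site 1: agtaaatccaatagccTGTTTACctccttg
ADAMTS6, site 2: ccctccaactcacttgTGTTTACatcctcc

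Of 27 members tested, 8 held TGTTTAC in the longest annotated 3' untranslated region (29.6%), against 18.0% of 12044 tested genes. The regions of the members were also longer, with a median of 1922 bases against 1348 for tested genes. ADAM12 had 3 sites, ADAM22 and ADAMTS6 had 2 each, and ADAM10, ADAM19, ADAMTS3, ADAMTS12 and ADAMTSL5 had 1 each. Printed above are ADAM12, ADAM10, ADAM19 and ADAMTS6, with log2 fold changes, cadmium over control, of -0.36, -0.018, 0.050 and 0.033. The sites of ADAM22 (0.69), ADAMTS3 (0.36), ADAMTS12 (0.18) and ADAMTSL5 (0.059) are not printed. These fold changes are all higher than those of the printed members. The members with a site had a median log2 fold change, cadmium over control, of 0.054, and those without had 0.111. Among all tested genes these medians were 0.042 with a site and -0.011 without. ADAM33 and ADAMTS10, the members that rose with cadmium, held no site in these regions. These values describe the sequences, and no test was made on them.

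The log2 fold change, cadmium over control, lay within 0.5 of 0 for 19 of the 27 members tested, and the matching share of all tested genes was not computed. Reads were counted in 34 and 32 of the 46 members in the cadmium libraries, and in 33 and 29 in the controls. Of the 46, 27 passed the filter on low counts, 10 had no read in any library, and the other 9 had at most 15 reads over the 4 libraries together. ADAM33 and ADAMTS10 rose, 0 fell and 25 did not pass the test (edgeR quasi-likelihood, Benjamini-Hochberg adjusted p under 0.05 over 13663 genes). The 2 that rose are 7.41% of the members tested, next to 8.85% of all tested genes called higher, so that share was near the background. Members called lower were 0 of 27, next to 7.66% of all tested genes. At an unadjusted p under 0.05 there were 4 members higher and 4 lower, next to 17.3% and 16.7% of all tested genes. With DESeq2 the same 2 were higher and ADAMTS15 passed as lower, next to 7.08% of genes called higher and 7.05% called lower by that tool. In 6 further settings with all 4 libraries ADAM33 and ADAMTS10 were again the members called. The shares of all genes called higher and lower were 8.81% and 7.54% with DESeq2's size factors, 10.6% and 4.99% with library size alone, and 9.87% and 7.71% with a stricter filter. They were 10.6% and 9.34% with limma-voom, 7.5% and 6.28% with counts thinned to equal depth, and 7.85% and 5.94% with replicate numbers as a block. The median log2 fold change of tested members was 0.073, against 0.002 over all tested genes. Both cadmium libraries lay above both controls for 10 tested members and below them for 5, next to 31.3% and 30.8% of all tested genes.

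**Figure D1:**
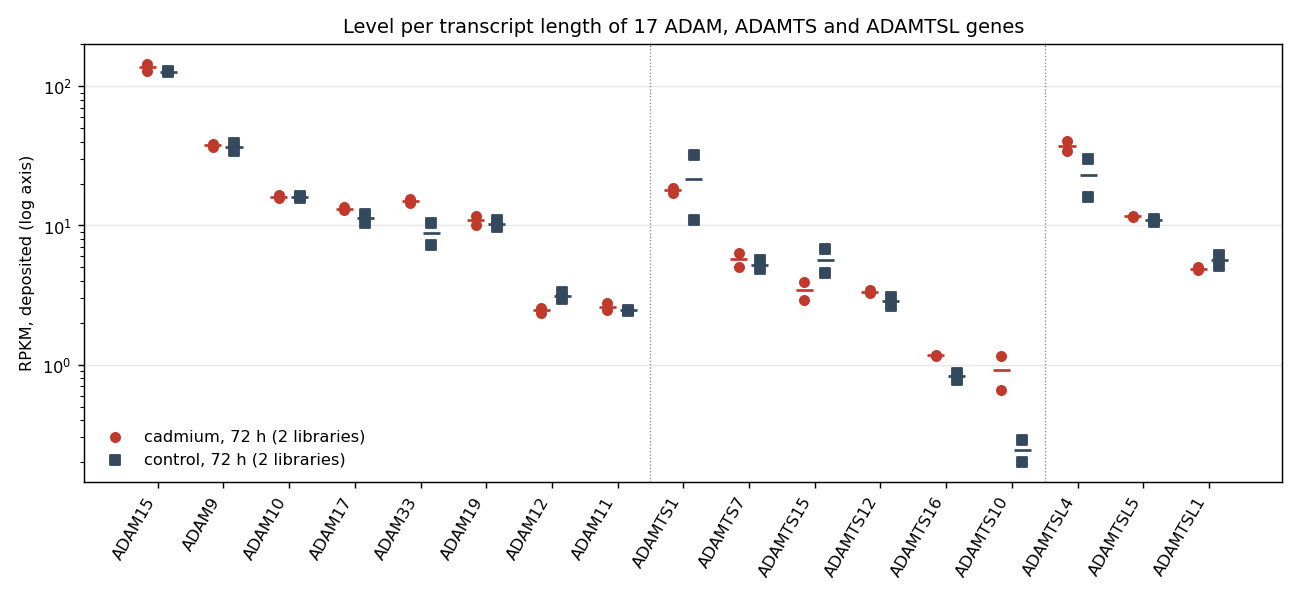
Deposited RPKM (log axis) of the 17 members that averaged at least 5 CPM or passed the test, with cadmium libraries as circles left of control libraries as squares and the group mean as a bar. ADAM15 stands highest at 137 RPKM with cadmium and 128 RPKM in control, and ADAMTS1 and ADAMTSL4 show control libraries far apart.

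Summed over the 46 members, the level was 1410 and 1371 CPM in the cadmium libraries and 1303 and 1313 CPM in the controls. ADAM15, which carries an integrin-binding disintegrin motif, supplied 43.4% and 40.8% of the family's summed RPKM with cadmium and 43.1% and 43.2% in the controls. The order per length behind it was ADAM9, ADAMTSL4, ADAMTS1, ADAM10, ADAM17, ADAM33, ADAMTSL5 and ADAM19, from 37.2 to 10.6 RPKM as means over the 4 libraries. Neighbours in this order overlapped in their libraries' RPKM, except that ADAM15 stood clear of ADAM9 and ADAM10 clear of ADAM17. Every other member averaged below 6 RPKM.

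The widely made sheddases ADAM10, ADAM9 and ADAM15 had the narrowest intervals of the 27 tested members. ADAM10, which cuts Notch receptors and the amyloid precursor protein, had 88.9 and 94.0 CPM in the cadmium libraries and 94.2 and 90.6 CPM in the controls. The groups overlapped, with a log2 fold change of -0.018 and a 95% interval from -0.22 to 0.18. ADAM9, a sheddase that also binds integrins, had 167 and 176 CPM with cadmium and 159 and 181 CPM in control, so its groups overlapped too. Its log2 fold change was 0.021, with an interval from -0.19 to 0.23. ADAM15 had 463 and 417 CPM with cadmium and 413 and 423 CPM in control, a log2 fold change of 0.073 (interval from -0.12 to 0.26). For ADAM9, ADAM10 and ADAM15 these intervals allow a change of no more than 1.2-fold up or to 0.859 of the control level down.

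ADAM17 releases TNF and ligands of the EGF receptor. It had 51.2 and 54.1 CPM in the cadmium libraries and 42.7 and 49.5 CPM in the controls. Both cadmium libraries were higher, by 0.20 on the log2 scale (SE 0.11). The interval ran from -0.054 to 0.45 and the test was not passed (adjusted p = 0.245, edgeR). ADAM19, a sheddase of neuregulins, had 74.1 and 86.7 CPM with cadmium and 81.8 and 72.6 CPM in control. Its log2 fold change was 0.050, with an interval from -0.21 to 0.31.

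ADAM33 was the ADAM gene that rose. Variants near it have been linked to asthma, and in the airway wall its transcript is mostly known from smooth muscle cells and fibroblasts. In hg19 it lies on the minus strand at chr20:3648620-3662778. The cadmium libraries held 1761 and 980 reads and the controls 773 and 358 reads, which gave 57.5 and 62.0 CPM with cadmium and 29.7 and 42.5 CPM in control. Both cadmium libraries stood above both controls, and the controls differed more from each other than the cadmium libraries did. ADAM33 averaged 59.8 ± 3.18 CPM with cadmium and 36.1 ± 9.07 CPM in control (SD, n = 2 each). It was thus higher by 0.75 on the log2 scale, with SE 0.16 and an adjusted p of 0.0213 (edgeR). The 95% interval of the fold ran from 1.30 to 2.19. The authors' deposited table gives ADAM33 mean levels of 15.0 RPKM with cadmium and 8.86 RPKM in control, with a log ratio of 0.65 and an adjusted p of 0.000887.

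The call for ADAM33 did not hold without cadmium replicate 2 (adjusted p = 0.0580), and without control replicate 1 the log2 fold change was 0.49. Fibroblast markers were measured beside it. Of 8 such genes 4 were tested and 0 passed with edgeR. COL1A1 alone had an unadjusted p under 0.05. It passed as lower with DESeq2 (adjusted p = 0.0387), and in edgeR with no filter on low counts (adjusted p = 0.0294) or without control replicate 2 (adjusted p = 0.000618). THY1 had 588 and 543 CPM with cadmium and 548 and 536 CPM in control, and PDGFRB had 187 and 205 CPM with cadmium and 162 and 185 CPM in control. COL3A1 and DCN had 0 reads throughout, and PDGFRA had 1 read in each cadmium library and 1 and 0 reads in the controls. Their summed level was 4039 and 3818 CPM with cadmium and 5091 and 4260 CPM in control, most of it COL1A1. Their part in the level of ADAM33 was not tested. In bulk libraries a change in the number of cells of a kind and in RNA per cell cannot be told apart.

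The other ADAM genes stood at lower levels. ADAM12, a meltrin that is made in muscle, placenta and many tumours, had 20.8 and 23.0 CPM with cadmium and 30.1 and 25.7 CPM in control. Both cadmium libraries lay below both controls, with a log2 fold change of -0.36 (SE 0.13), short of the threshold (adjusted p = 0.0928, edgeR). Among the alternatives run, it passed only without control replicate 2 (adjusted p = 0.0157). ADAM11, an inactive member known from nerve cells, had 12.2 and 13.7 CPM with cadmium and 12.4 and 12.5 CPM in control. ADAM22, an inactive member that binds LGI1 at synapses, had 3.56 and 3.04 CPM with cadmium and 2.07 and 2.02 CPM in control. That was a difference of 0.69 on the log2 scale, short of the threshold (adjusted p = 0.114, edgeR). Its RPKM gave another picture, 0.346 and 0.297 with cadmium and 0.337 and 0.202 in control, and the length implied by reads and RPKM was 10522 and 10403 bases with cadmium but 6035 and 9800 bases in control.

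ADAM8, which leukocytes make in quantity, had 49 and 28 reads in the cadmium libraries and 35 and 9 reads in the controls, a log2 fold change of 0.42 with an interval from -0.35 to 1.19. The leukocyte gene PTPRC had 1 and 2 reads with cadmium and 1 and 0 reads in control, and CD3E and LYZ had none. Of 8 leukocyte markers 3 were tested, and CD68 and ITGAM rose. The summed level of the 8 was 96.1 and 89.4 CPM with cadmium and 63.2 and 64.5 CPM in control. Most of it was CD68, at 83.4 and 80.7 CPM with cadmium and 56.0 and 52.6 CPM in control. ITGAM did not pass when any 1 library was dropped (adjusted p from 0.0648 to 0.311). Their part in the level of ADAM8 was not tested. ADAM21, a testis gene, had 18 and 9 reads with cadmium and 11 and 0 in control. ADAM20 is a close paralogue on the same chromosome, 14, so reads may be split between them, and ADAM20 had 1 read in all. The remaining 11 ADAM genes were at or near 0. ADAM2, ADAM5, ADAM6, ADAM7, ADAM18, ADAM28 and ADAM30 had no read, and ADAM20, ADAM23, ADAM29 and ADAM32 had at most 7 reads over the 4 libraries. Many of these genes are known from testis and sperm, and 5 of 6 sperm markers also had no read.

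**Figure D2:**
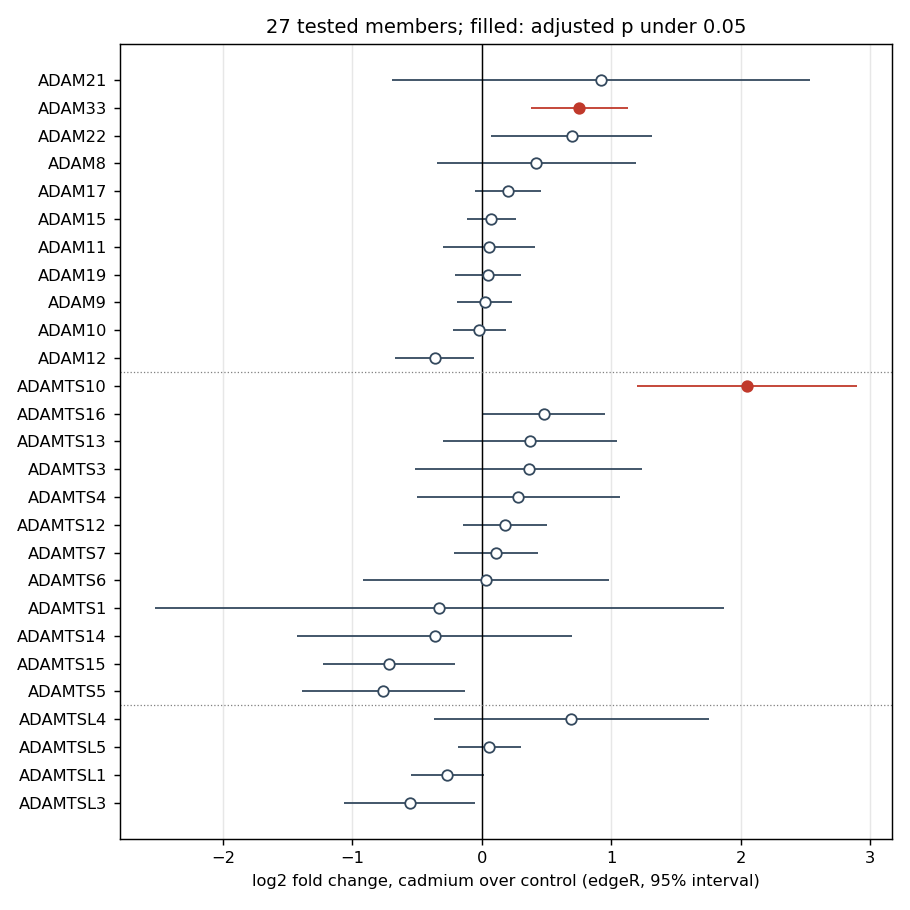
Log2 fold change, cadmium over control, with its 95% interval (edgeR) for the 27 tested members, in blocks of ADAM, ADAMTS and ADAMTSL genes from top to bottom. ADAM33 and ADAMTS10, the filled points, passed the test, and ADAMTS1 has the widest interval, from -2.53 to 1.87.

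ADAMTS10 showed the largest fold change of the 27 tested members. Its protein binds fibrillin and is needed for normal microfibrils, and loss of the gene causes Weill-Marchesani syndrome. In hg19 it lies on the minus strand at chr19:8645124-8675620. The cadmium libraries held 169 and 49 reads and the controls 29 and 8 reads. Both cadmium libraries stood above both controls, at 5.52 and 3.10 CPM with cadmium and 1.11 and 0.950 CPM in control. ADAMTS10 averaged 4.31 ± 1.71 CPM with cadmium and 1.03 ± 0.116 CPM in control (SD, n = 2 each). On the log2 scale it was higher by 2.05, with SE 0.37 and an adjusted p of 0.0122 (edgeR). The fold was 4.14 with a 95% interval from 2.29 to 7.47. Without cadmium replicate 1 the log2 fold change was 1.55 and no longer passed (adjusted p = 0.0930). The authors' deposited table lists ADAMTS10 at 0.909 RPKM with cadmium and 0.244 RPKM in control, with an adjusted p of 0.00295. The log ratio in that table was 0.89, smaller than the 2.05 found here. It was also smaller than the log2 ratio of the authors' own 2 mean levels, and the cause was not tested. The RPKM of control replicate 1 implied a length of 3789 bases, against 4646 to 4853 bases in the other libraries, so its level per length is less certain than its reads.

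The promoters of ADAMTS10 are printed because it rose most, and that of ADAM10 because its groups overlapped. Cells answer excess zinc or cadmium through MTF1, a factor that binds metal response elements in metallothionein promoters. Each window runs from 250 bases before to 50 bases after a RefSeq start, on the gene's strand (minus for both genes, GRCh38.p14). Capitals mark matches to TGCACNC or TGCGCNC, the core of that element, on either strand, and adjoining matches form a single run of capitals. The windows are chr19:8610666-8610965 and chr19:8592167-8592466 for the upstream and downstream ADAMTS10 starts and chr15:58749658-58749957 for ADAM10.
ADAMTS10, upstream start: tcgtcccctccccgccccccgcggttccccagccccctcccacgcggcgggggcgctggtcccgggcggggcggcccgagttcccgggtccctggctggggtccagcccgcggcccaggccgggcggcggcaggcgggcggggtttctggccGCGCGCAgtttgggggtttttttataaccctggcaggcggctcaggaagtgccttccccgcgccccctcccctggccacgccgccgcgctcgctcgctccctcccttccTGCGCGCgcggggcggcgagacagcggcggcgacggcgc
ADAMTS10, downstream start: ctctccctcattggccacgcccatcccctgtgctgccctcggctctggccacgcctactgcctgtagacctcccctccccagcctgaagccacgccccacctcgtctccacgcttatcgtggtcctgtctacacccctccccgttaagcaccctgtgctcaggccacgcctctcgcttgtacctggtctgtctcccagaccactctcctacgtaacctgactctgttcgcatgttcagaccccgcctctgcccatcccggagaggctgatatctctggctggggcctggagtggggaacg
ADAM10: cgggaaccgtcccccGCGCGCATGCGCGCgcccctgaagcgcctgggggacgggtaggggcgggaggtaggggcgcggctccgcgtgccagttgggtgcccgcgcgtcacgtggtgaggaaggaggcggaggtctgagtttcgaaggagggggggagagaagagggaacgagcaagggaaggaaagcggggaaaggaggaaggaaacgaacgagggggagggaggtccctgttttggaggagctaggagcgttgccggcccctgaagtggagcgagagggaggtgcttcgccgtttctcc

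The upstream ADAMTS10 window held 2 matches and the downstream window 0, and the ADAM10 window also held 2. The upstream ADAMTS10 window was 79.3% G and C with 43 CpG dinucleotides, and the ADAM10 window 68.0% with 30. RefSeq windows were matched by symbol for 29 of the 46 members. A match to the motif was found in 13 of 20 windows from 19 tested members (65.0%), against 37.3% of the windows of all tested genes and 29.6% of all windows in the table. ADAM22, ADAMTS12, ADAMTS13 and ADAMTSL3 had at least 2 matches each, and none of them passed the test. A match of this length is a description of the letters and not a binding site. The promoter of ADAM33 was not analysed here.

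None of the tested proteoglycan-cutting ADAMTS genes passed edgeR's test on filtered counts with group alone in the model. ADAMTS15 is an aggrecanase. It had 24.8 and 18.8 CPM in the cadmium libraries and 29.6 and 43.8 CPM in the controls. Both cadmium libraries were below both controls, with a difference of -0.72 on the log2 scale (SE 0.21), which missed the threshold (adjusted p = 0.0628, edgeR). DESeq2 called it (adjusted p = 0.00908), as did edgeR with no filter on low counts (adjusted p = 0.0365), where 9.09% of genes were called higher and 8.09% lower. It also passed when control replicate 1 was dropped (adjusted p = 0.00424), at -0.99. When control replicate 2 was dropped instead, the value was -0.44 (adjusted p = 0.0541). The authors' deposited table calls ADAMTS15 lower, with a log ratio of -0.60 and an adjusted p of 0.0103. That table calls ADAM33, ADAMTS10 and ADAMTS15 among the 46 members, and its adjusted p is under 0.05 for 7.68% of genes as higher and 7.79% as lower, out of 12807 with a value below 1.

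ADAMTS1, a proteoglycanase with strong anti-angiogenic activity, was where the controls differed most among the 16 members averaging at least 5 CPM. It had 89.1 and 98.3 CPM in the cadmium libraries and 171.5 and 58.8 CPM in the controls, so both cadmium libraries lay between the controls. The control libraries differed 2.92-fold and the cadmium libraries 1.10-fold. The log2 fold change was -0.33 with an interval from -2.53 to 1.87 (adjusted p = 0.780, edgeR). Without control replicate 1 ADAMTS1 was called higher, with a log2 fold change of 0.67 (adjusted p = 0.00480). Without control replicate 2 it was called lower, with a log2 fold change of -0.88 (adjusted p = 1.33e-05). The direction for ADAMTS1 was therefore set by which control was used. With control replicate 1 dropped, 7.56% of all genes were called higher and 7.34% lower, and with control replicate 2 dropped 13.8% and 12.5% were. With cadmium replicate 1 dropped the shares were 2.71% and 1.73%, and with cadmium replicate 2 dropped 4.18% and 2.08%.

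Such spread was less common among the cadmium libraries. Of 16 members averaging at least 5 CPM, 0 differed by more than 1.5-fold between the cadmium libraries and 2 between the controls, ADAMTS1 and ADAMTSL4. Among all 10790 genes at that level 0.89% did so with cadmium and 4.96% in control.

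The remaining ADAMTS genes were lower in level. ADAMTS7 and ADAMTS12, which cut cartilage oligomeric matrix protein, had log2 fold changes of 0.11 and 0.18 with intervals from -0.21 to 0.44 and from -0.15 to 0.51. ADAMTS7 had 39.0 and 31.3 CPM with cadmium and 30.5 and 35.4 CPM in control, and the groups overlapped. ADAMTS12 had 18.0 and 19.2 CPM with cadmium and 17.5 and 15.0 CPM in control, and they did not. ADAMTS16 had 6.57 and 6.46 CPM with cadmium and 4.46 and 4.99 CPM in control, which was 0.48 on the log2 scale and short of the threshold (adjusted p = 0.142, edgeR).

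Low members of this branch were ADAMTS3, ADAMTS4, ADAMTS5, ADAMTS6, ADAMTS13 and ADAMTS14, each under 6 CPM in every library. The aggrecanase ADAMTS5 was below both controls in both cadmium libraries, at 2.29 and 1.84 CPM with cadmium and 3.76 and 3.21 CPM in control, and its value of -0.76 on the log2 scale fell short of the threshold (adjusted p = 0.0924, edgeR). The aggrecanase ADAMTS4 had 3.04 and 1.77 CPM with cadmium and 2.11 and 1.90 CPM in control. ADAMTS6 had 3.23 and 4.68 CPM with cadmium and 5.03 and 1.90 CPM in control, again with the controls apart. ADAMTS3 and ADAMTS14, which trim procollagens, had intervals from -0.52 to 1.24 and from -1.43 to 0.70. Depth limits what can be said of them: ADAMTS14 had 18 and 10 reads with cadmium and 24 and 4 in control. ADAMTS13, which cuts von Willebrand factor, had 149 and 63 reads with cadmium and 72 and 38 reads in control. Of the 7 that were not tested, ADAMTS9 and ADAMTS20 had no read, and ADAMTS2, ADAMTS8, ADAMTS17, ADAMTS18 and ADAMTS19 had at most 15 over the 4 libraries.

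Of 5 ADAMTSL genes 4 were tested and 0 passed with edgeR and with DESeq2, with ADAMTSL3 alone at an unadjusted p under 0.05. ADAMTSL4, whose loss displaces the eye lens, had 190 and 162 CPM in the cadmium libraries and 77.1 and 144 CPM in the controls. Both cadmium libraries were higher than both controls. The controls differed 1.87-fold, and the difference of 0.69 on the log2 scale (SE 0.36) missed the threshold (adjusted p = 0.287, edgeR). Dropping control replicate 2 gave 1.19, which passed (adjusted p = 4.59e-06). Dropping control replicate 1 gave 0.29, which missed it (adjusted p = 0.114). The antisense gene ADAMTSL4-AS1 overlaps it and had 7 and 4 reads with cadmium and 3 and 0 reads in control.

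ADAMTSL1 had 39.7 and 43.9 CPM with cadmium and 45.8 and 55.2 CPM in control, below both controls with a log2 fold change of -0.26 (adjusted p = 0.170, edgeR). ADAMTSL3 lay below both controls as well, at 4.05 and 3.99 CPM with cadmium and 6.42 and 5.23 CPM in control (log2 fold change -0.56, adjusted p = 0.118). ADAMTSL5 had 36.7 and 37.9 CPM with cadmium and 36.5 and 34.9 CPM in control, just above both controls, with an interval from -0.18 to 0.30. ADAMTSL2 had no read.

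**Figure D3:**
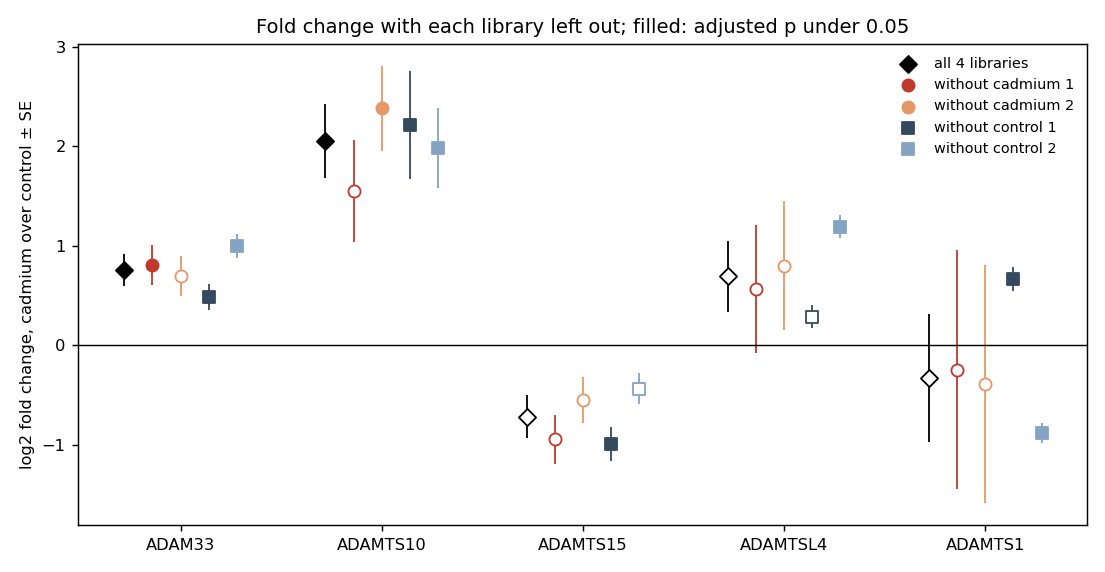
Log2 fold change, cadmium over control, ± SE (edgeR) for 5 members with all 4 libraries and with each library left out in turn, filled where the adjusted p was under 0.05. ADAMTS1 is called higher without control replicate 1 (0.67) and lower without control replicate 2 (-0.88), while ADAM33 and ADAMTS10 stay above 0 in each of the 5 fits.

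Genes that control or meet these proteases were read from lists drawn up by known function, with earlier results of these data in view. Beside their counts and medians stand 8.85% of all tested genes called higher, 7.66% called lower and a median of 0.002. Among inhibitors, RECK and TIMP4 of 5 tested rose, the other 3 did not pass, and the list's median log2 fold change was 0.017. RECK, a membrane-bound inhibitor of metalloproteases including ADAM10, had 22.4 and 22.2 CPM with cadmium and 15.2 and 14.7 CPM in control (log2 fold change 0.57, adjusted p = 0.0229, edgeR). TIMP4 rose by 1.40 (adjusted p = 0.0387) from few reads, 69 and 28 with cadmium and 18 and 8 in control. TIMP3, the TIMP that blocks ADAM17 and several ADAMTS enzymes, had a log2 fold change of 0.017 (SE 0.17). RECK no longer passed without either cadmium library (adjusted p = 0.156 and 0.125), and TIMP4 did not pass with DESeq2 (adjusted p = 0.199) or without cadmium replicate 1 (0.315), cadmium replicate 2 (0.101) or control replicate 1 (0.184), or with counts thinned to equal depth (0.0976).

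Among 10 tested genes that move or mature ADAM10 and ADAM17, RHBDF2, TSPAN15 and TSPAN33 rose and the other 7 did not pass, with a list median of 0.154. At an unadjusted p under 0.05 (edgeR) 4 were higher and 2 lower, next to 17.3% and 16.7% of all tested genes. The 2 lower were FRMD8 (log2 fold change -0.25) and TSPAN10 (-0.43). RHBDF2 encodes iRhom2, which carries ADAM17 to the cell surface. It had 107 and 102 CPM with cadmium and 75.5 and 57.6 CPM in control, and its rise on the log2 scale was 0.64 (SE 0.13, adjusted p = 0.0160, edgeR). TSPAN15 and TSPAN33 are tetraspanins that escort ADAM10, and they rose by 0.69 (adjusted p = 0.0241) and 0.88 (adjusted p = 0.0167). None of the 3 passed without cadmium replicate 1, where the adjusted p was 0.0613 for RHBDF2, 0.208 for TSPAN15 and 0.117 for TSPAN33, and TSPAN15 also missed without control replicate 1 (adjusted p = 0.0583). PCSK7, a proprotein convertase of the group that removes the prodomain of many ADAMs, had 72.3 and 69.7 CPM with cadmium and 95.6 and 87.0 CPM in control, and fell, with a log2 fold change of -0.37 (edgeR, adjusted p = 0.0343). It did not pass without cadmium replicate 1 (0.165), cadmium replicate 2 (0.201) or control replicate 1 (0.0986), or with library size alone (0.0612), each value an adjusted p. The convertase FURIN had a value of 0.11 on that scale.

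Substrates were mixed. Of 22 tested cell surface proteins that ADAMs shed, NOTCH3, JAG2 and CXCL16 rose, the other 19 did not pass, and the median was 0.132. Of these 22, 6 were higher and 2 lower at an unadjusted p under 0.05 (edgeR), next to 17.3% and 16.7% of all tested genes. The 2 lower were PRNP (log2 fold change -0.2) and SDC4 (-0.35). DESeq2 called 3 higher and 1 lower, next to 7.08% and 7.05% of genes. NOTCH3, a receptor cut by ADAM10, rose by 1.49 (SE 0.25, adjusted p = 0.0167, edgeR), to 75.4 and 52.8 CPM with cadmium, against 26.7 and 17.7 CPM in control. It missed the threshold with no filter on low counts (adjusted p = 0.0873). NOTCH3 also missed with replicates paired crosswise between the groups, a setting added after seeing the data (adjusted p = 0.0794, edgeR). JAG2, a Notch ligand, rose by 0.55 (adjusted p = 0.0109), and the chemokine CXCL16 by 0.52 (adjusted p = 0.0198). CXCL16 did not pass without cadmium replicate 1 (adjusted p = 0.175), nor JAG2 without cadmium replicate 2 (adjusted p = 0.0503).

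Of 13 tested matrix substrates of ADAMTS enzymes, NID2 and FBLN1 rose and the other 11 did not pass, with a median of 0.201. NID2, a basement membrane nidogen, rose by 2.18 (SE 0.25, adjusted p = 0.00349) and FBLN1, a cofactor of ADAMTS1, by 0.87 (adjusted p = 0.00537). COL1A1, COL5A1, FN1 and THBS1 had an unadjusted p under 0.05 as lower (edgeR), next to 16.7% of all tested genes. DESeq2 called these 4 lower, next to 7.05% of genes, and edgeR with the replicate block called 3 lower, next to 5.94%. Without control replicate 2 edgeR called 4 lower as well. Of 9 tested microfibril genes, LTBP1 and LTBP4, which tether latent TGF-beta to fibrillin, rose by 0.95 (adjusted p = 0.0143) and 0.69 (adjusted p = 0.0325), the other 7 did not pass, and the median was 0.213. LTBP1 and LTBP4 did not pass without cadmium replicate 1 (adjusted p = 0.0897 and 0.0961), nor LTBP1 without cadmium replicate 2 (adjusted p = 0.0694). The endocytic receptor LRP1, which clears several ADAMTS enzymes, rose by 0.62 (adjusted p = 0.0240) and missed without cadmium replicate 1 (adjusted p = 0.0882), and its chaperone LRPAP1 had a log2 fold change of -0.19. The 4 genes that glycosylate thrombospondin repeats had a median of 0.050, and 0 passed with edgeR or DESeq2 or had an unadjusted p under 0.05.

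**Figure D4:**
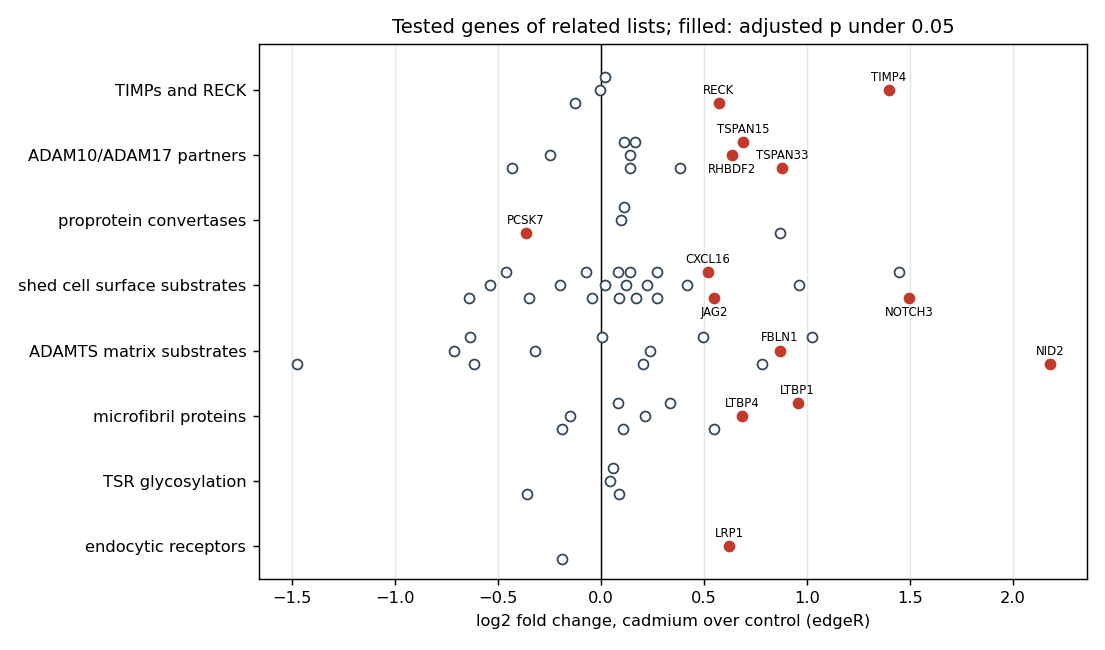
Log2 fold change, cadmium over control (edgeR), of the tested genes in 8 lists related to ADAM and ADAMTS function, each circle a gene, filled and named where the adjusted p was under 0.05, with the proprotein convertases shown in part. The called genes shown lie to the right of 0, with NID2 farthest at 2.18, except PCSK7 at -0.37.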

How the data were processed

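RNA was sequenced from 4 BEAS-2B libraries, 2 per group. Per the file headers, the authors deposited whole-number read counts and RPKM of RefSeq genes, library by library. Their comparison table averages RPKM by group, and the authors also deposited there log ratios with p-values, raw and adjusted. The authors' deposited log ratios state no base and were read as log2, because against the log2 ratio of mean RPKM they had a slope of 0.89 (1570 genes, each group over 50 RPKM). The submitters' processing notes name STAR 2.4, DESeq2, DESeq and hg19 without roles. Which counter, annotation release and strand setting were used is not given in the sources used here, so overlapping antisense reads cannot be separated.

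Rows were joined by RefSeq identifier. Counts as deposited were filtered with filterByExpr, scaled with TMM and fitted on the group alone with edgeR 4.0.16 (R 4.3.3, robust quasi-likelihood test). Benjamini-Hochberg adjustment ran over all 13663 tested genes, and 0.05 was the threshold. SE came from the F statistic, and 95% intervals from SE and the fit's degrees of freedom. Alternatives used DESeq2 1.42.0 and limma 3.58.1, other scaling and filters, thinned counts, a replicate block and each library left out, where the group's lone library is assumed to vary like the other group's. The procedure was tested on simulated counts. It called 75.3% of 300 genes given a log2 change of 1 and 96.3% of 300 given a change of 2. Of 537 calls, 4.1% were genes given no change. The simulated spread followed the trend with level, and each gene's own spread was not simulated. Libraries of the same group differed beyond sampling noise (chi-square per gene 7.35 for cadmium and 11.3 for control).

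Per-library values were given for members that passed or averaged at least 5 CPM, and for others chosen after their values were seen. In each related list the passing genes with the largest changes were named, and 1 list, the proprotein convertases, is reported in part. Members and lists were chosen with earlier results of these data known. Listed coordinates count from 1, checked against hairpin lengths.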

Additional observations from a re-analysis of the deposited data

How the results depend on the processing

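Calls on single members rested on few libraries. Lower members numbered 1 with no filter on low counts, 1 with DESeq2 and 1 with the crossed replicate block, in each case ADAMTS15. Leaving out 1 library gave 1 to 3 higher members and 0 to 3 lower ones. The other alternatives gave 2 higher and 0 lower, except 3 higher with the crossed replicate block, where ADAMTSL4 was added. Of 17 named members 11 kept their direction in all 13 alternatives. The log2 fold change of ADAM10 turned to 0.040 with library size alone and 0.020 with thinned counts. With single libraries left out, values on both sides of 0 were found for ADAM10 (-0.056 to 0.028), ADAM9 (-0.074 to 0.11), ADAM11 (-0.030 to 0.15), ADAM19 (-0.062 to 0.17), ADAMTS7 (-0.063 to 0.25), ADAMTS1 (-0.88 to 0.67) and DPY19L1 (-0.13 to 0.39). The cause was not tested. No label says that replicate numbers mark shared cultures. The correlation of replicate differences between groups was -0.14, and with the replicate block 2 members were higher and 0 lower. Of the related genes and markers named, TIMP4 (adjusted p = 0.0546), PCSK7 (0.0516) and ITGAM (0.0781) missed the threshold with the replicate block in edgeR, and COL1A1 passed as lower (0.0406). Crossed pairing, added after seeing the data, gave 1551 higher and 1471 lower genes in all, against 1209 and 1046 without a block and 1073 and 811 with the block as numbered. Depth limits the members under 1 CPM, where control replicate 2 held 0 to 4 reads.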
